A study of Mus musculus with 12 samples.

Results

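The genes described here are 10 that mark and drive the conversion of fibroblast-like cells into adipocytes: Pparg, Cebpa, Cebpb, Cebpd, Fabp4, Adipoq, Lpl, Plin1, Plin2 and Cd36. They were taken as a list by name, with earlier results of these data known. Each was found on the array through the transcript accession of its probe. All 10 had a probe, out of 21367 named genes, and 8 of the 10 passed the filter on dim probes and were tested, among 14447 genes tested in all. Adipoq and Plin1 did not pass that filter and are given as values without a test.

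The cells were mouse embryonic fibroblasts (MEFs), primary connective tissue cells grown from C57BL/6 embryos at mid-gestation. All groups carried viral vectors, and no group without a vector was among the samples. RASV12-first cells received an oncogenic form of RAS (RASV12) and afterwards a short hairpin RNA against mouse p53 mRNA (shp53). The shp53-first cells received the same vectors in the opposite order. RASV12 cells carried the oncogene alone and shp53 cells the hairpin alone. Each group had 3 arrays, described by the study's design text as independent biological replicates. The labels do not say which embryos or litters the replicates came from.

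Each of the 12 arrays measured 100 ng of labelled RNA from 1 sample in 1 colour. Levels are log2 values of the processed spot signal minus the 75th percentile of the same array, so a level of 0 is the signal that 75 percent of the array's spots stay below, and a difference of 1 is a doubling of signal. A level belongs to its probe and is compared only with the same probe on other arrays. A difference was called where limma's Benjamini-Hochberg adjusted p, over all tested genes of the comparison, was under 0.05. The 6 comparisons share groups with each other and are therefore not independent.

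Several facts about the arrays touch the results that follow. Between 56.6% and 62.4% of an array's spots were well above background. In every group 1 pair of arrays was much closer than the remaining array: Pearson's r over all genes ran from 0.993 to 0.998 in these pairs (replicates 2 and 3 of RASV12-first and of shp53-first cells, replicates 1 and 3 of RASV12 and of shp53 cells) and from 0.967 to 0.981 in the others. Replicate 1 of both groups with a pair of vectors and replicate 2 of both groups with 1 vector therefore stood apart. Each slide held 1 array of every group. Trp53, which encodes the hairpin's target p53, had mean levels of -3.99 in RASV12-first, -3.61 in shp53-first, -0.56 in RASV12 and -3.27 in shp53 cells. All 11 fibroblast markers examined were well above background on every array, and their log2 summed level was 8.33 to 9.21 in RASV12-first, 8.14 to 8.69 in shp53-first, 8.14 to 8.72 in RASV12 and 8.83 to 9.38 in shp53 cells. Against shp53 cells 5 of the 11 were lower and 1 higher in RASV12-first, 6 lower and 0 higher in shp53-first, and 5 lower and 0 higher in RASV12 cells. Of all tested genes, 23.8%, 20.3% and 12.8% were called lower and 21.7%, 17.3% and 14.3% higher in these comparisons. The log2 sum of 8 skeletal muscle markers was 0.25 to 1.16 in RASV12-first, -1.72 to 0.09 in shp53-first, 1.61 to 1.88 in RASV12 and 2.98 to 3.92 in shp53 cells. Of these 8, Acta1 was well above background on 12 arrays, Des on 4, Tnnt3 on 3, Ckm on 1, and Actn2, Myh3, Myod1 and Myog on 0. Of the 3 muscle markers tested, 3, 2 and 2 were lower than in shp53 cells in RASV12-first, shp53-first and RASV12 cells. The part of either in the results against shp53 cells was not tested.

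Markers of another cell type varied between arrays as well. The log2 summed level of 16 macrophage markers was 3.20, 2.69 and 2.61 on the RASV12-first arrays and 3.40, 3.18 and 3.65 on the shp53-first arrays. It was 3.78, 4.41 and 3.30 on the RASV12 arrays and 7.14, 3.83 and 7.16 on the shp53 arrays. Replicates 1 and 3 of shp53 cells were thus far above the other 10 arrays. On the RASV12-first arrays 6 to 8 of the 16 markers were well above background, on shp53-first arrays 6 to 8, on RASV12 arrays 12 to 13 and on shp53 arrays 15 to 16. Adgre1, which encodes a macrophage surface receptor, was not well above background on any array of the RASV12-first or shp53-first cells, and its level ran from -3.75 to -1.81 in RASV12 cells and from -1.73 to 3.21 in shp53 cells. Csf1r, the receptor for a macrophage growth factor, was well above background on every array. Of all tested genes, 23.8%, 20.3% and 12.8% were lower than in shp53 cells in RASV12-first, shp53-first and RASV12 cells. Between the orders 15.8% were called. Of 15 of the macrophage markers tested, 13 were lower and 0 higher than in shp53 cells in each of the other groups, and 0 were called between the orders. The part of such cells in the results below was not tested, and each call of the 10 genes against shp53 cells is also given without shp53 replicates 1 and 3. That leaves shp53 replicate 2, itself an array that stands apart, as the only array of its group, so those adjusted p-values take the spread from the other groups and assume that a lone shp53 array varies like them; they carry no replicate check of shp53 cells. In these bulk samples fewer cells of a type and less RNA per cell cannot be told apart.

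Fat cell formation runs through a cascade of transcription factors. C/EBP beta and C/EBP delta, encoded by Cebpb and Cebpd, are induced early by hormonal signals and switch on Pparg and Cebpa. PPAR gamma, a nuclear receptor that binds DNA with RXR, and C/EBP alpha then maintain each other's expression and activate the genes of the mature adipocyte. Those genes encode proteins that release fatty acids from circulating lipoproteins (Lpl), take them up (Cd36), carry them inside the cell (Fabp4), coat the lipid droplet (Plin1 and Plin2) and act as a hormone (Adipoq). MEFs can enter this programme in culture when given adipogenic hormones, and many of these genes are also used by macrophages and other cells.

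The promoters of the regulators are shown because these genes are known to act on one another. RefSeq promoter windows (GRCm38.p6, 250 bases before to 50 after a transcript's start) were matched by symbol for 7 of the 10 genes, Pparg having 3. Both strands were searched for the C/EBP half-site TTGCG, the spaced C/EBP pair TTNNGCAA, the nuclear receptor half-site AGGTCA and the CRE half-site TGACG, a binding sequence of CREB. Capitals mark the matches, and no matches of different motifs overlapped in the windows printed. The windows are the first Pparg start (chr6:115360894-115361193, plus strand), the last listed Pparg start (chr6:115421816-115422115, plus strand), Cebpa (chr7:35119043-35119342, plus strand) and Cebpb (chr2:167688665-167688964, plus strand):
Pparg, first start: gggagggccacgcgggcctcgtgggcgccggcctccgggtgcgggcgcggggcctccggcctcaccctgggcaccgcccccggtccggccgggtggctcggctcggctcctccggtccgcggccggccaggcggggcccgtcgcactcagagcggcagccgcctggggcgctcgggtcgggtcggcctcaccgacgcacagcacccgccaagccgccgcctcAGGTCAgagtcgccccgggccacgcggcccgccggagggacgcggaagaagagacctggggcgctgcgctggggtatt
Pparg, last start: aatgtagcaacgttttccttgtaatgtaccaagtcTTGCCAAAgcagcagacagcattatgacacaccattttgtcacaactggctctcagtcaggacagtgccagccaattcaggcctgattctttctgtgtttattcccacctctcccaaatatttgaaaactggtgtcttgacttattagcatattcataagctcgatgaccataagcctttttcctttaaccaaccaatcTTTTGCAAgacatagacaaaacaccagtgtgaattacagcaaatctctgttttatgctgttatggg
Cebpa: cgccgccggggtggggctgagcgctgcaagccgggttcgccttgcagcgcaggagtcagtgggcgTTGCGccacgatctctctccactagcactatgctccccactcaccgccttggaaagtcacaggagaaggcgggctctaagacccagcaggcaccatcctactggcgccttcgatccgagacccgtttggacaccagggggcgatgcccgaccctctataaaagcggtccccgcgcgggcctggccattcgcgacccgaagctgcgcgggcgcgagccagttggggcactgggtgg
Cebpb: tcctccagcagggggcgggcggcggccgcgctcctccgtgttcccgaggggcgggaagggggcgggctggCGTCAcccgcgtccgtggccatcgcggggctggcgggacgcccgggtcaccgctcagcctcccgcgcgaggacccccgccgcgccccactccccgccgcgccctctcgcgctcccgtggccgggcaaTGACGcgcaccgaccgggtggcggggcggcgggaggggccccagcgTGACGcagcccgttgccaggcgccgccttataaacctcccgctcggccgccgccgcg

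Of all 32851 promoter windows of this length, 17.4% held TTGCG, 10.8% held TTNNGCAA, 16.3% held AGGTCA and 20.8% held TGACG. The last Pparg start had 2 matches to TTNNGCAA, the first had 1 match to AGGTCA, Cebpa had 1 match to TTGCG, and Cebpb had 3 matches to TGACG. Among the other windows, Plin1 had 2 matches to TTNNGCAA, Plin2, Cd36 and the second Pparg start each had 1 match to AGGTCA, and Adipoq had none of the 4 motifs. A match describes these letters only, and which Pparg start the cells used was not tested.

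Cebpb, which acts at the first step, was called in no comparison. Its level was 4.37, 3.97 and 3.94 in RASV12-first cells and 5.16, 4.17 and 4.23 in shp53-first cells. In RASV12 cells it was 4.12, 4.36 and 4.23, and in shp53 cells 4.05, 3.25 and 4.09. Replicate 1 of shp53-first cells was the highest and replicate 2 of shp53 cells the lowest, and the groups overlapped in 4 of 6 comparisons. The smallest adjusted p was 0.0772, for shp53-first minus shp53, where the log2 difference was 0.73 ± 0.29 (SE, n = 3 arrays each, limma).

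Cebpd, the partner of Cebpb in the early step, was lowest in RASV12-first cells. Its level there was 3.15, 3.69 and 3.85, against 6.67, 5.92 and 5.97 in shp53-first cells, the same vectors in the other order. RASV12 cells had levels of 5.99, 5.93 and 5.99, and shp53 cells 5.33, 3.97 and 5.36. No RASV12-first array reached the lowest array of any other group, while the shp53-first and RASV12 arrays overlapped. Cebpd was lower in RASV12-first than in shp53-first cells by a log2 difference of -2.62 ± 0.36 (SE, n = 3 each; adjusted p = 0.000869), a 6.15-fold difference. It was also lower in RASV12-first than in RASV12 cells, at -2.41 ± 0.36 (adjusted p = 0.000635), and both calls were kept in every alternative processing tried. Against shp53 cells RASV12-first cells were lower by -1.32 ± 0.36 (adjusted p = 0.0133), and without shp53 replicates 1 and 3 this difference was -0.40 (adjusted p = 0.469). Cebpd was higher in shp53-first than in shp53 cells at 1.30 ± 0.36 (adjusted p = 0.0179), and at 2.22 without the same shp53 arrays (adjusted p = 0.00386). It was also higher in RASV12 than in shp53 cells at 1.08 ± 0.36 (adjusted p = 0.0489), a call at the edge of the threshold that was lost in 15 of 24 alternatives. Without shp53 replicates 1 and 3 that difference was 2.0 (adjusted p = 0.00804).

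Pparg, the receptor at the centre of the programme, also differed between the orders. Its level was -2.63, -3.78 and -3.90 in RASV12-first cells, against -0.96, -1.82 and -2.0 in shp53-first cells. In RASV12 cells it was -2.76, -2.17 and -2.71, and in shp53 cells -0.81, -0.34 and -0.85. Every RASV12-first array lay below every shp53-first array, every shp53 array lay above all others, and RASV12-first overlapped only with RASV12. The Pparg probe is printed 10 times on the array, and the SD between those spots on an array was 0.04 to 0.19, which is technical spread only; the SD between arrays of a group was 0.28 to 0.70. Pparg was lower in RASV12-first than in shp53-first cells by -1.84 ± 0.37 (SE, n = 3 each; adjusted p = 0.00754), a 3.58-fold difference. Within the 3 slides this difference was -1.66, -1.96 and -1.90. It was lower in RASV12-first than in shp53 cells by -2.77 ± 0.37 (adjusted p = 0.000211) and in RASV12 than in shp53 cells by -1.88 ± 0.37 (adjusted p = 0.00398). Both remained called without shp53 replicates 1 and 3, at -3.10 (adjusted p = 0.00552) and -2.21 (adjusted p = 0.0381). The other 3 comparisons did not pass, with shp53-first minus RASV12 at 0.95 ± 0.37 (adjusted p = 0.0862), shp53-first minus shp53 at -0.93 ± 0.37 (adjusted p = 0.0738) and RASV12-first minus RASV12 at -0.89 ± 0.37 (adjusted p = 0.0824). When the close arrays of each group were averaged, the difference between the orders was -1.80 and no longer called (adjusted p = 0.156). That call was also lost in the fit of the 2 groups alone and with normexp background correction, where the difference was -0.29 (adjusted p = 0.777). Normexp correction lost both calls against shp53 cells as well, with RASV12-first minus shp53 at -0.96 (adjusted p = 0.505).

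Cebpa was lowest in both groups that carried RASV12 and shp53 together. Its level was -6.51, -6.52 and -7.37 in RASV12-first cells, where no array was well above background, and -5.54, -6.07 and -7.46 in shp53-first cells, where 2 of 3 were. RASV12 cells had levels of -3.97, -3.58 and -4.03, and shp53 cells -1.29, -2.41 and -1.19. The 2 groups that received both vectors overlapped, and they lay below every RASV12 array, which in turn lay below every shp53 array. Because the RASV12-first signal gives only a bound, Cebpa was at least 4.38-fold lower there than in RASV12 cells (adjusted p = 0.0011) and at least 20.5-fold lower than in shp53 cells (adjusted p = 2.01e-05), with means of -6.80, -3.86 and -1.63. With normexp background correction the difference of RASV12-first minus RASV12 turned to 0.89 and was not called (adjusted p = 0.347), and that of shp53-first minus RASV12 turned to 0.20 (adjusted p = 0.9). All 5 Cebpa calls were lost in that setting, with RASV12-first minus shp53 at -0.96 (adjusted p = 0.711) and shp53-first minus shp53 at -1.66 (adjusted p = 0.322). Without that correction, Cebpa in shp53-first cells was lower than in RASV12 cells by -2.50 ± 0.49 (SE, n = 3 each; adjusted p = 0.00491) and lower than in shp53 cells by -4.73 ± 0.49 (adjusted p = 5.36e-05). RASV12 cells were lower than shp53 cells by -2.23 ± 0.49 (adjusted p = 0.00677), which was -1.45 and not called without shp53 replicates 1 and 3 (adjusted p = 0.222). Under that same change the RASV12-first and shp53-first calls against shp53 cells were kept, at -4.39 (adjusted p = 0.00214) and -3.95 (adjusted p = 0.0049). The difference between the orders was -0.44 ± 0.49 and was not called (adjusted p = 0.608).

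**Figure D1:**
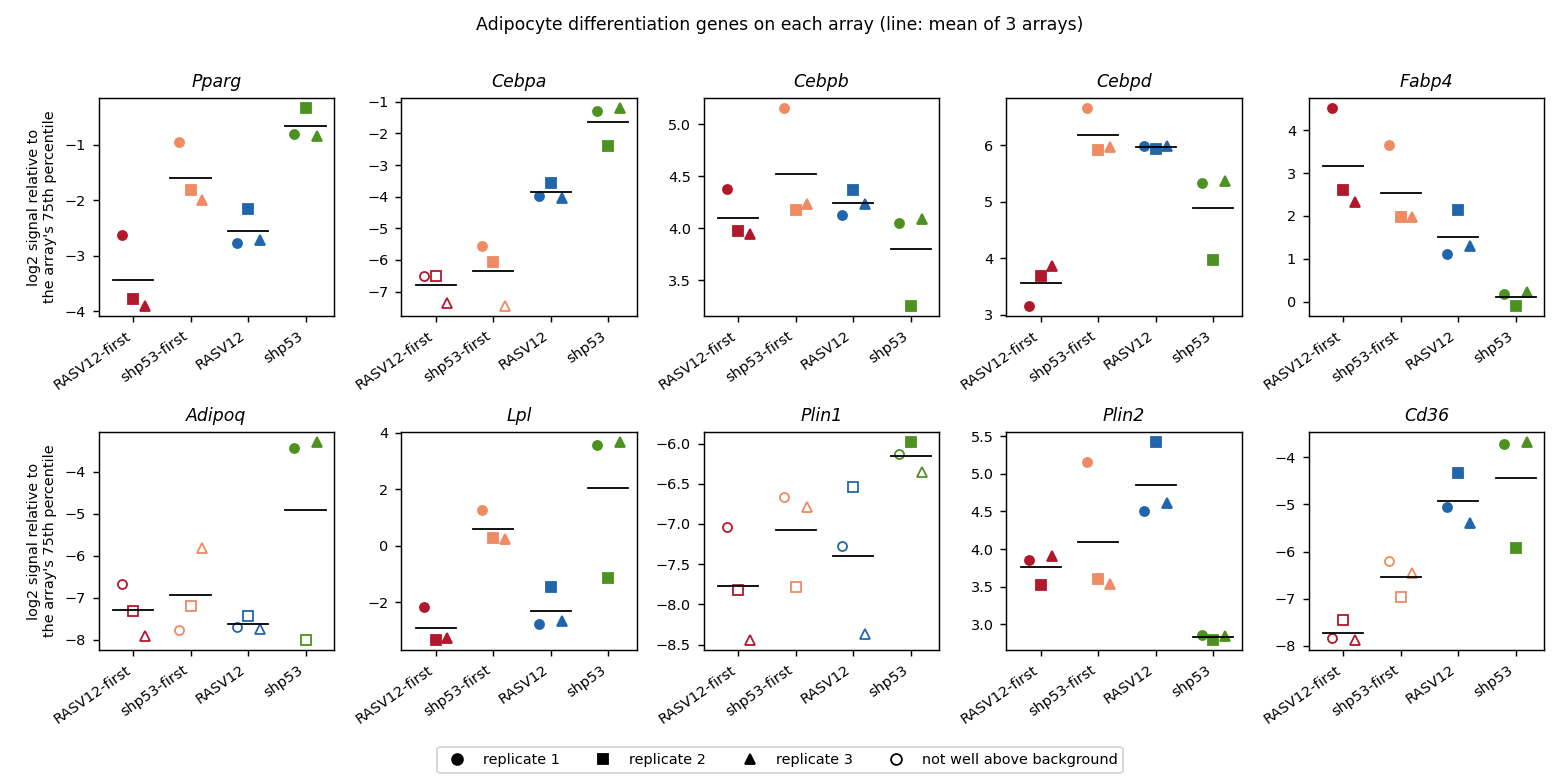
Level of each of the 10 genes on every array: the y axis is log2 signal relative to the 75th percentile of its array, with a separate range for each gene, the x axis the group, each symbol 1 array and each line the mean of 3. Open symbols are arrays where the probe was not well above background; Cebpd is lowest in all 3 RASV12-first arrays, Fabp4 lowest in all 3 shp53 arrays, and Adipoq is above background on only 2 shp53 arrays.

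Fabp4, the adipocyte fatty acid carrier, which endothelial cells and macrophages also make, was lowest in shp53 cells, where Pparg and Cebpa were highest. Its level was 4.52, 2.61 and 2.33 in RASV12-first cells and 3.64, 1.98 and 1.97 in shp53-first cells. In RASV12 cells it was 1.1, 2.13 and 1.30, and in shp53 cells 0.17, -0.10 and 0.24. All shp53 arrays lay below every other array, and replicate 1 was the highest in both groups with a pair of vectors. Fabp4 was higher in RASV12-first than in shp53 cells by 3.05 ± 0.60 (SE, n = 3 each; adjusted p = 0.00216), an 8.28-fold difference, and higher in shp53-first than in shp53 cells by 2.43 ± 0.60 (adjusted p = 0.00977). Without shp53 replicates 1 and 3 these were 3.25 (adjusted p = 0.0398) and 2.63 (adjusted p = 0.0976). Both Fabp4 calls were lost with normexp background correction, and the shp53-first call also when close arrays were averaged. RASV12-first minus RASV12 was 1.64 ± 0.60 and not called (adjusted p = 0.0515), and the orders differed by 0.62 ± 0.60 (adjusted p = 0.548). The log2 summed level of 9 endothelial markers was 4.27, 2.88 and 2.78 on the RASV12-first arrays, 3.59, 2.84 and 2.90 on the shp53-first arrays, 3.11, 2.59 and 3.25 on the RASV12 arrays and 2.76, 2.62 and 2.63 on the shp53 arrays. The 2 arrays with the highest Fabp4 had the highest endothelial sums, while RASV12 replicate 2, with the highest Fabp4 of its group, had the lowest sum of all arrays. Of the 9 markers, Egfl7, Kdr and Pecam1 were well above background on 12 arrays, Cdh5 on 6, Cldn5 and Esam on 5, Emcn on 1, and Tek and Tie1 on 0. Of 6 tested, 3 were higher and 1 lower in RASV12-first than in shp53 cells, against 21.7% and 23.8% of all tested genes. In shp53-first minus shp53, 2 were higher and 1 lower, against 17.3% and 20.3% of all tested genes. The part of endothelial cells in the Fabp4 result was not tested.

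Lpl, which encodes the lipase that frees fatty acids from lipoproteins, had the widest spread between arrays. Its level was -2.17, -3.35 and -3.25 in RASV12-first cells, against 1.26, 0.27 and 0.23 in shp53-first cells. RASV12 cells had levels of -2.78, -1.45 and -2.67, and shp53 cells 3.58, -1.15 and 3.68. The shp53-first arrays lay above all RASV12-first and RASV12 arrays, and replicate 2 of shp53 cells was far below the other 2 arrays of its group. Lpl was lower in RASV12-first than in shp53 cells by -4.96 ± 1.08 (SE, n = 3 each; adjusted p = 0.00403) and in RASV12 than in shp53 cells by -4.34 ± 1.08 (adjusted p = 0.0135). Neither passed without shp53 replicates 1 and 3, the arrays with the high macrophage sum, at -1.77 (adjusted p = 0.0982) and -1.15 (adjusted p = 0.346). Both calls were also lost with normexp background correction and when close arrays were averaged. The difference between the orders, -3.51 ± 1.08, did not pass with all arrays (adjusted p = 0.0524). Leaving out those 2 shp53 arrays does not change this difference, only the spread it is set against. With normexp background correction it was not called either (adjusted p = 0.703). Within the 3 slides it was -3.43, -3.61 and -3.48. Between the orders Lpl became called in 8 of 25 alternatives. Among these was the fit of the orders alone with the replicate number as a block (adjusted p = 0.00149), a fit chosen after seeing the data. Same-numbered arrays of these groups deviated together. The shp53-first minus RASV12 difference was 2.89 ± 1.08 with all arrays and did not pass (adjusted p = 0.0764). Leaving out shp53 arrays does not change it. A second, dimmer Lpl probe was well above background on no RASV12-first array and did not pass for the orders in a fit of single probes (adjusted p = 0.0539), and it gave 3.63 ± 1.11 for shp53-first minus RASV12 (adjusted p = 0.0397), with 1 of 3 RASV12 arrays well above background.

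Cd36, a fatty acid transporter and scavenger receptor that macrophages also carry, was near background in the cells with both vectors. Its level was -7.83, -7.45 and -7.88 in RASV12-first cells and -6.2, -6.95 and -6.45 in shp53-first cells. No array of these groups was well above background, so no fold is given between the orders. In RASV12 cells the level was -5.06, -4.34 and -5.39, and in shp53 cells -3.71, -5.92 and -3.67. Every RASV12 and shp53 array was well above background, and these groups overlapped. Cd36 was at least 2.08-fold lower in RASV12-first than in RASV12 cells (adjusted p = 0.0026; means of -7.72 and -4.93) and at least 2.94-fold lower than in shp53 cells (adjusted p = 0.000734; mean of -4.43). It was at least 3.0-fold lower in shp53-first than in shp53 cells (adjusted p = 0.0117; mean of -6.53), a call that was lost without shp53 replicates 1 and 3 (log2 difference -0.62, adjusted p = 0.393). With normexp background correction RASV12-first minus RASV12 turned to 1.20 and was not called (adjusted p = 0.246). Both calls against shp53 cells were lost in that setting too, with RASV12-first minus shp53 at -0.35. Without shp53 replicates 1 and 3, RASV12-first minus shp53 was -1.80.

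Plin2, a lipid droplet coat protein found in most cell types, was lowest in shp53 cells. Its level was 3.86, 3.52 and 3.91 in RASV12-first cells and 5.16, 3.6 and 3.54 in shp53-first cells. In RASV12 cells it was 4.51, 5.42 and 4.61, and in shp53 cells 2.86, 2.79 and 2.85. All shp53 arrays lay below every other array and close together. Plin2 was higher in RASV12 than in shp53 cells by 2.02 ± 0.40 (SE, n = 3 each; adjusted p = 0.00392) and in shp53-first than in shp53 cells by 1.27 ± 0.40 (adjusted p = 0.0293). With shp53 replicate 2 alone for that group, the differences were 2.06 (adjusted p = 0.0709) and 1.31 (adjusted p = 0.209). The RASV12 call was kept with normexp background correction and lost when close arrays were averaged. The shp53-first call was lost in both settings. RASV12-first minus shp53 was 0.93 ± 0.40 and was not called (adjusted p = 0.0794).

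Adipoq and Plin1, the late markers among the 10 genes, were not well above background on most arrays. Adipoq, which encodes the hormone adiponectin, was well above background on 2 of 12 arrays, shp53 replicates 1 and 3 at -3.44 and -3.29, while shp53 replicate 2 read -8.01 and the highest of the 9 arrays of other groups read -5.82. Plin1, the coat protein of the adipocyte lipid droplet, was well above background on 1 array, shp53 replicate 2 at -5.98. The 2 arrays with Adipoq signal are those with the high macrophage sum, and Plin1 was not above background on either. Of 24 further mature adipocyte genes, 11 to 13 were well above background on an array of RASV12-first, 13 to 17 of shp53-first, 15 to 16 of RASV12 and 17 to 20 of shp53 cells. Adig, Aqp7 and Plin4 were so on 9 arrays each, whereas Lep, which encodes leptin, Retn, which encodes resistin, Pck1 and Thrsp were well above background on no array. Cfd, which encodes adipsin, was well above background on 2 arrays, both of shp53 cells.

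**Figure D2:**
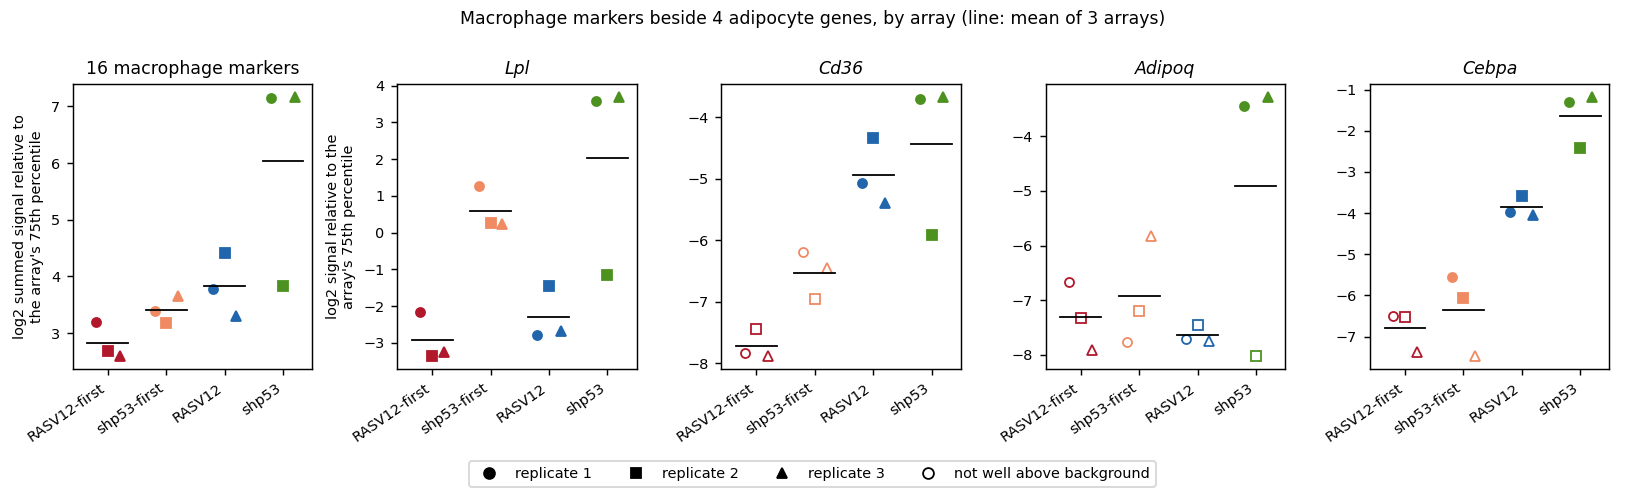
Macrophage markers and 4 of the genes by array: the left panel's y axis is the log2 summed signal of 16 macrophage markers and the others' the log2 signal of 1 gene, all relative to the 75th percentile of that array, with groups along x, 1 symbol an array (open where not well above background) and lines the mean of 3. Replicates 1 and 3 of shp53 cells are highest in every panel, with Lpl at 3.58 and 3.68 and the marker sum at 7.14 and 7.16. The genes not shown differ: Pparg and Plin1 are highest in shp53 replicate 2, Cebpb and Cebpd in shp53-first replicate 1. Fabp4 and Plin2 are lowest in shp53 cells.

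Set side by side, the comparison of the orders called 2 of the 8 tested genes, Pparg and Cebpd, both lower in RASV12-first cells, while 15.8% of all tested genes were called in that comparison, 7.33% higher and 8.47% lower. RASV12-first minus RASV12 called 3 of 8 lower (Cebpa, Cebpd and Cd36) where 38.8% of all genes were called, 17.2% higher and 21.7% lower. RASV12-first minus shp53 called 5 lower (Pparg, Cebpa, Cebpd, Lpl and Cd36) and 1 higher (Fabp4), against 45.5% of all genes, 21.7% higher and 23.8% lower. The shp53-first minus RASV12 comparison called only Cebpa, lower, against 25.4% of all genes, 10.3% higher and 15.1% lower. The shp53-first minus shp53 comparison called 3 higher (Cebpd, Fabp4 and Plin2) and 2 lower (Cebpa and Cd36), against 37.6%, 17.3% higher and 20.3% lower. RASV12 minus shp53 called 2 higher (Cebpd and Plin2) and 3 lower (Pparg, Cebpa and Lpl), against 27.1%, 14.3% higher and 12.8% lower. The groups of all tested genes did not overlap in 32.1% of genes between the orders, 51.1% in RASV12-first minus RASV12, 56.6% in RASV12-first minus shp53, 43.6% in shp53-first minus RASV12, 53.3% in shp53-first minus shp53 and 51.2% in RASV12 minus shp53. A count over 8 genes was not tested against these shares. The median log2 difference of the 8 genes was -0.81 between the orders, -0.99 in RASV12-first minus RASV12, -2.05 in RASV12-first minus shp53, 0.25 in shp53-first minus RASV12, -0.10 in shp53-first minus shp53 and -0.03 in RASV12 minus shp53. Over all tested genes the medians lay between -0.07 and 0.05.

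**Figure D3:**
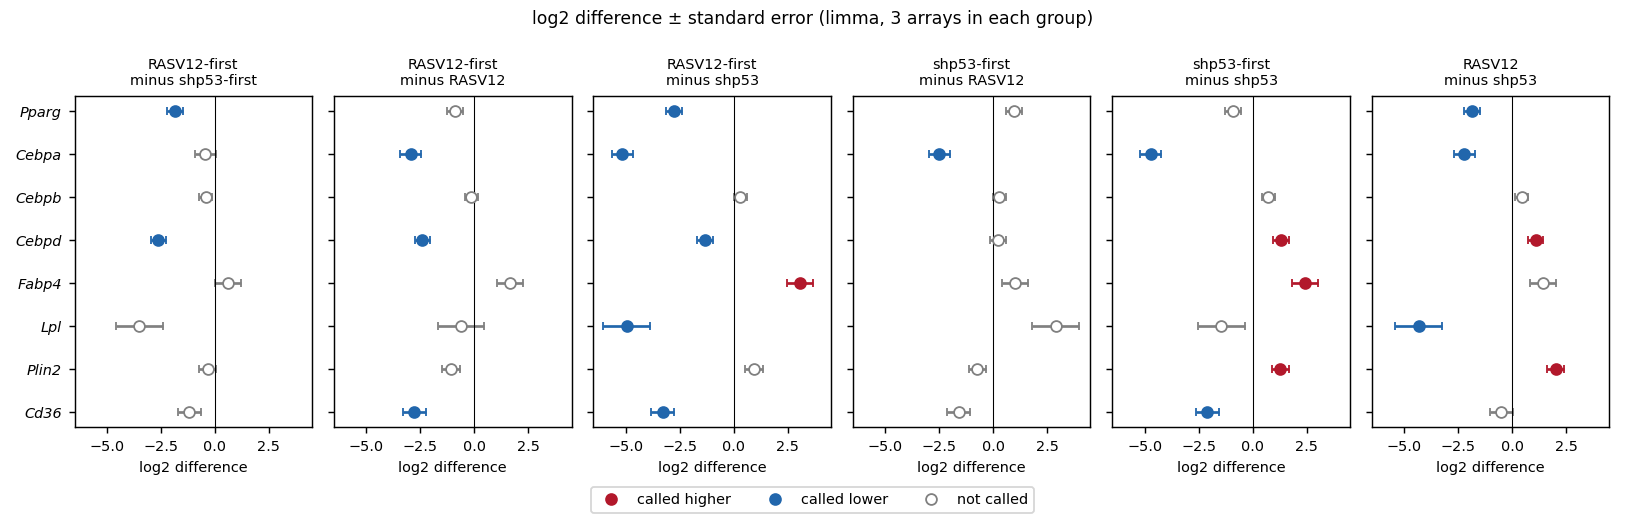
Log2 difference of each tested gene (rows) in the 6 comparisons (panels), x axis in log2 units, with points the limma estimate and bars its standard error from 3 arrays a group. Filled red points were called higher and filled blue points called lower at an adjusted p under 0.05; Pparg and Cebpd are the only filled points between the orders, and Cebpa is filled blue in all panels but that one.

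Of the 22 calls, 22 were kept without the 4 arrays that stand apart, 9 when the close arrays were averaged and 3 with normexp background correction. The 9 were Cebpd between the orders, Cebpa, Cebpd and Cd36 in RASV12-first minus RASV12, Pparg, Cebpa, Fabp4 and Cd36 in RASV12-first minus shp53, and Cebpa in shp53-first minus shp53. The 3 were Cebpd between the orders and in RASV12-first minus RASV12, and Plin2 in RASV12 minus shp53. Under the fit that averages close arrays, the share of all genes called was also smaller, 2.93% between the orders and 17.2% in RASV12-first minus shp53. With normexp correction these shares were 0.45% and 2.38%. Without the 4 arrays that stand apart, each the least alike of its group, they rose to 46.4% and 71.6%. Keeping all 22 calls there is therefore a weak check.

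Other genes of the pathway were described from lists. Of all tested genes, 7.33% were called higher and 8.47% lower between the orders, and 17.2% and 21.7% in RASV12-first minus RASV12. Against shp53 cells these shares were 21.7% and 23.8% in RASV12-first, 17.3% and 20.3% in shp53-first and 14.3% and 12.8% in RASV12 cells. No list count was tested against these shares. Without shp53 replicates 1 and 3 a lone shp53 array is left, and the share of all genes called against shp53 cells falls too. List counts are therefore given for all arrays only, and how far they rest on those 2 arrays was not tested. The list genes named below against shp53 cells kept their calls without shp53 replicates 1 and 3, except Gata3. Among 20 other activators of adipogenesis, 4 were lower and 2 higher in RASV12-first than in shp53-first cells. Ebf3, an early B-cell factor, was lower by -3.59 ± 0.28 (SE, n = 3 each; adjusted p = 1.67e-05), with means of -0.91 in RASV12-first and 2.68 in shp53-first cells. Klf15, a Krüppel-like factor that acts late in adipogenesis, was at least 3.72-fold lower (adjusted p = 9.54e-05; means of -8.29 and -4.09). Ebf2, which marks preadipocytes with brown potential, was at least 5.58-fold lower (adjusted p = 0.00013; means of -7.57 and -3.51). With normexp background correction Klf15 and Ebf2 turned to 0.24 and 0.16 in this comparison, neither called. Ebf1, of the same family, went the other way, higher in RASV12-first cells by 2.35 ± 0.25 (adjusted p = 0.000138). Against shp53 cells, 13 of the 20 activators were lower in RASV12-first cells and 2 higher. Of all tested genes, 23.8% were lower and 21.7% higher in that comparison. Igf1, the growth factor, was lower there by -4.64 ± 0.59 (adjusted p = 0.000142). It was also lower than in shp53 cells in shp53-first cells, by -5.27 ± 0.59 (adjusted p = 8.78e-05), and in RASV12 cells, by -3.63 ± 0.59 (adjusted p = 0.00123). The same comparison in shp53-first cells called 6 lower and 2 higher, and in RASV12 cells 6 lower and 0 higher, with Ebf1 lower by -3.44 ± 0.25 (adjusted p = 5.98e-06) and -2.03 ± 0.25 (adjusted p = 0.000229). The part of shp53 replicates 1 and 3 in these counts was not tested.

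Of 12 relatives and partners of PPAR gamma and the C/EBPs, 10 were tested. Between the orders 1 was called, Nr1h3, which encodes the oxysterol receptor LXR alpha, lower in RASV12-first cells by -2.33 ± 0.38 (SE, n = 3 each; adjusted p = 0.00253). Nr1h3 was also lower in RASV12-first than in RASV12 cells by -2.06 ± 0.38 (adjusted p = 0.0022). The Nr1h3 call was lost in 2 of 25 alternatives between the orders and in 2 of 24 against RASV12 cells. Ppard, the most widely expressed PPAR, was the 1 gene called in RASV12 minus shp53, higher by 0.90 ± 0.23 (adjusted p = 0.0135).

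Inhibitors of adipogenesis were called in both directions. Between the orders 15.8% of all tested genes were called. Of 16 tested, the orders differed in 2, Runx2, a factor for bone formation, which was higher in RASV12-first cells by 1.1 ± 0.26 (SE, n = 3 each; adjusted p = 0.0159), and Tgfb1, lower by -0.48 ± 0.13 (adjusted p = 0.032). The Runx2 call was lost in 7 and the Tgfb1 call in 14 of 25 alternatives. Zfp521, a zinc finger protein that inhibits Ebf1, was lower than in shp53 cells in all 3 other groups, by -1.50 ± 0.21 in RASV12-first (adjusted p = 0.000275), -1.60 ± 0.21 in shp53-first (adjusted p = 0.000256) and -2.85 ± 0.21 in RASV12 cells (adjusted p = 9.83e-06). Gata3, which restrains Pparg in preadipocytes, was higher in shp53-first than in RASV12 cells by 3.49 ± 0.49 (adjusted p = 0.000874) and than in shp53 cells by 2.74 ± 0.49 (adjusted p = 0.0016), which was 1.76 and not called without shp53 replicates 1 and 3 (adjusted p = 0.0838). RASV12-first minus shp53 called 1 of the 16 higher and 3 lower, while 21.7% of all tested genes were higher and 23.8% lower.

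Of 24 other mature adipocyte genes, 17 were tested. RASV12-first minus shp53 called 8 lower and 0 higher, shp53-first minus shp53 8 lower and 2 higher, RASV12-first minus RASV12 8 lower and 1 higher, and the orders 3 lower and 0 higher. Of all tested genes, 23.8%, 20.3%, 21.7% and 8.47% were lower in these comparisons, and 21.7%, 17.3%, 17.2% and 7.33% higher. Mgll, which encodes monoacylglycerol lipase, was at least 173-fold lower in RASV12-first than in shp53 cells (adjusted p = 7.05e-09; means of -8.03 and 1.44; log2 difference of -3.15 and adjusted p = 0.0438 with normexp background correction) and was lower in RASV12 than in shp53 cells by -3.96 ± 0.25 (SE, n = 3 each; adjusted p = 4.07e-06). Aoc3, an amine oxidase of fat cells and smooth muscle, was lower than in shp53 cells by -5.59 ± 0.47 in RASV12-first cells (adjusted p = 8.84e-06), with 2 of its 3 arrays well above background, a call lost with normexp background correction (-1.79, adjusted p = 0.252). Aoc3 was also called lower than in shp53 cells in shp53-first (adjusted p = 8.91e-06) and RASV12 cells (adjusted p = 2.43e-05). Pnpla2, the lipase that starts the breakdown of stored fat, was lower in RASV12-first than in RASV12 cells by -1.36 ± 0.18 (adjusted p = 0.000248). Dgat2, which completes triglyceride synthesis, was lower in RASV12-first than in shp53-first cells by -1.77 ± 0.36 (adjusted p = 0.00739). How far the counts against shp53 cells rest on shp53 replicates 1 and 3 was not tested.

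**Figure D4:**
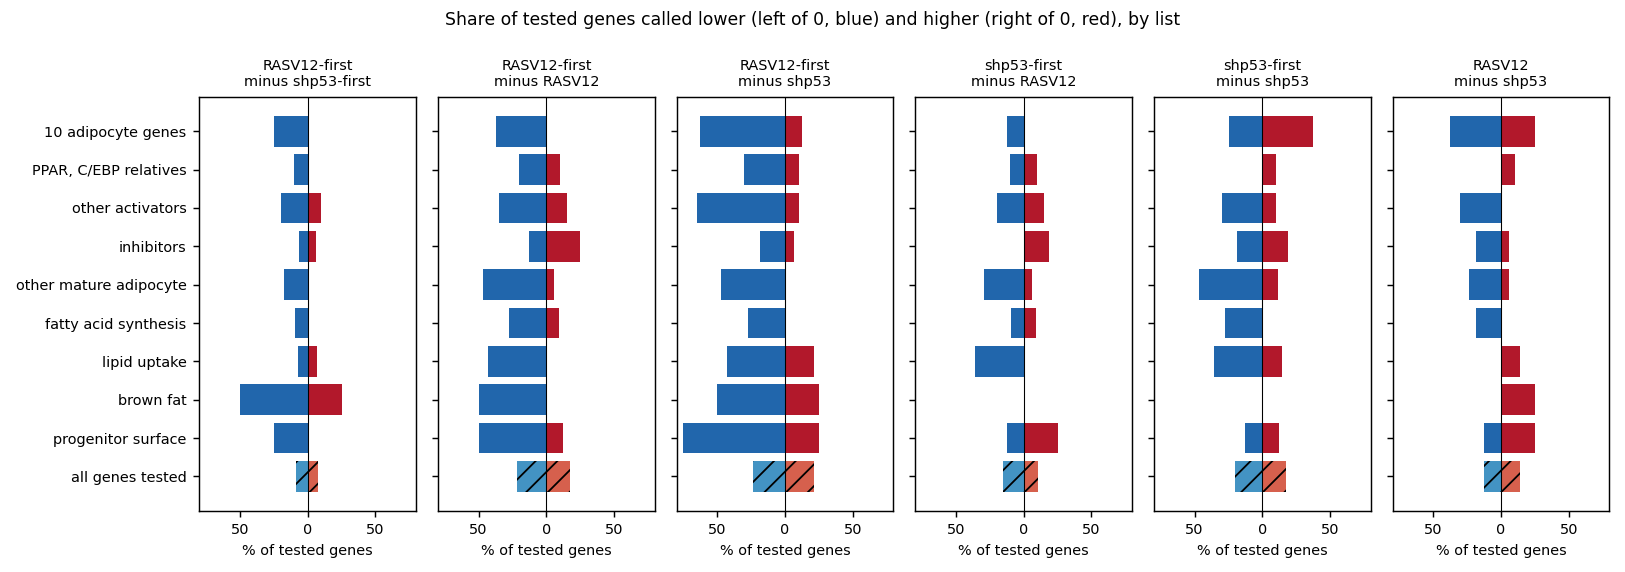
Share of tested genes called in each list (rows) and comparison (panels): the x axis is the percent of the list's tested genes, blue bars to the left of 0 the share called lower and red bars to the right the share called higher, with all tested genes as hatched bars in the bottom row. In RASV12-first minus shp53 the other activators reach 13 of 20 called lower and the other mature adipocyte genes 8 of 17, while brown fat bars rest on 4 tested genes.

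Among 15 genes for lipase control and lipid uptake, 14 were tested. Olr1, a scavenger receptor for oxidised lipoprotein, was at least 47.1-fold lower in RASV12-first than in shp53-first cells (adjusted p = 5.35e-05; means of -6.38 and -0.43), a call lost with normexp background correction (log2 difference -1.65, adjusted p = 0.703). Fabp3, the heart-type fatty acid carrier, was lower in RASV12-first than in shp53 cells by -2.08 ± 0.31 (SE, n = 3 each; adjusted p = 0.000404) and in shp53-first than in shp53 cells by -3.06 ± 0.31 (adjusted p = 4.75e-05), opposite to Fabp4. Angptl4, a secreted inhibitor of lipoprotein lipase, was higher in RASV12 than in shp53 cells by 3.16 ± 0.48 (adjusted p = 0.000848). The list's counts were 1 higher and 1 lower between the orders and 3 higher and 6 lower in RASV12-first minus shp53. Of all tested genes, 7.33% were higher and 8.47% lower between the orders, and 21.7% and 23.8% in RASV12-first minus shp53.

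Of 11 fatty acid synthesis genes, 1 was called between the orders, Elovl5, an elongase, lower in RASV12-first cells by -0.81 ± 0.15 (SE, n = 3 each; adjusted p = 0.00445). Against shp53 cells 23.8%, 20.3% and 12.8% of all tested genes were lower in RASV12-first, shp53-first and RASV12 cells. In this list the counts lower were 3 of 11 for RASV12-first, 3 for shp53-first and 2 for RASV12 cells, with 0 higher in each. The part of shp53 replicates 1 and 3 in these 3 counts was not tested. Of 7 brown fat genes, 4 were tested. Prdm16, a determinant of brown fat identity, was at least 3.95-fold lower in RASV12-first than in shp53-first cells (adjusted p = 0.000432, means of -6.2 and -3.88). With normexp background correction its difference was 0.35 and not called. Dio2, a thyroid hormone activating enzyme, was lower by -3.42 ± 0.50 (adjusted p = 0.00115), a call lost in 2 of 25 alternatives. Ucp1, the uncoupling protein of brown fat, was higher in RASV12-first cells by 3.34 ± 0.90 (adjusted p = 0.0297), with 3 of 3 arrays well above background there and 1 of 3 in shp53-first cells, and this call was lost in 7 of 24 alternatives. Of 9 surface genes of adipocyte progenitors, the orders differed in 2 of 8 tested, Pdgfrb and Thy1, lower in RASV12-first cells by -1.0 ± 0.18 (adjusted p = 0.0038) and -0.92 ± 0.27 (adjusted p = 0.0421), the Thy1 call being lost in 16 of 25 alternatives. RASV12-first minus shp53 called 2 of the 8 higher and 6 lower, against 21.7% and 23.8% of all tested genes. The part of shp53 replicates 1 and 3 in these counts was not tested.

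Over the 12 arrays the tested genes did not follow a single pattern. As a description across arrays that share their groups, Pearson's r of log2 levels was 0.89 between Cebpa and Cd36, 0.79 between Pparg and Lpl and 0.66 between Pparg and Cebpa, and it was -0.76 between Cebpa and Fabp4. The genes of the array most like Pparg were Fzd1 (r = 0.97), Cdkn1c (r = 0.97) and Mpped2 (r = 0.96), all over 12 arrays. Those most like Cebpd were Il6, Pde4b and Tfec (r = 0.96 each), and those most like Cebpa were Galnt10 (r = 0.98), Flt1 (r = 0.97) and Crlf2 (r = 0.97). Most like Cd36 were Cd53 (r = 0.98), a leukocyte surface gene, Gm4788 and Wfdc17 (r = 0.97 each), and most like Lpl were Arhgap45, Pik3r5 (r = 0.96 and 0.95) and Egfl6 (r = 0.95). Fabp4 was most like Rundc3a, Tafa2 (r = 0.98 each) and Maml3 (r = 0.97), Plin2 most like Stfa3, Ovgp1 and Nfe2l2 (r = 0.97, 0.95 and 0.93), and Cebpb most like Qpct, Prxl2a and Ralgapa2 (r = 0.97, 0.96 and 0.94).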

How the data were processed

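RNA of 12 samples was measured on 1-colour arrays of 44397 spots. The authors deposited, per the file headers, a processed signal intensity for each spot, background-subtracted within its array, and flags of another kind (0 or 1); the headers give Feature Extraction 11.5.1.1 and the submitters' processing notes 10.7.3.1. The deposited table of log2 values served only as an alternative. Non-uniform or outlying spots (1717 values, 0.333%) were left out, 0 were saturated, and spots of a probe were averaged after the 75th percentile over non-control spots was subtracted from log2 signal. A probe was kept where some group had it well above background on its 3 arrays, and the brightest kept probe stood for a gene. Of 39429 probes, 28330 had 1 gene name through a RefSeq table (names only) and 11099 had none. Cebpe, Cox8b and Elovl3 of the lists were above background on no array.

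All 12 arrays were fitted in limma 3.58.1 (R 4.3.3), 1 mean per group, with the empirical Bayes test, which was tried on simulated data. The p-values reflect only how far these arrays spread, which may be technical, and the number of arrays limits precision. For a group without any array well above background the fold is a bound: the brighter group's mean against the mean, over the dim group's arrays, of the lowest signal well above background or the probe's own if higher. Named genes were the 10 members, up to 4 called genes of each list and comparison with the smallest adjusted p, and the 3 genes most like each tested member. Members, lists and tests were chosen with earlier results of these data known. Same-numbered arrays deviated together in RASV12-first and shp53-first cells (r of deviations 0.32 to 0.60) and not clearly in the other pairs of groups, the number being also the slide.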

Additional observations from a re-analysis of the deposited data

How the results depend on the processing

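Counts are of members called, of 8 tested unless another number is given. Normexp background correction, run on median pixel signals, called 1 in RASV12-first minus shp53-first, 1 in RASV12-first minus RASV12, 0 in RASV12-first minus shp53, 0 in shp53-first minus RASV12, 0 in shp53-first minus shp53 and 1 in RASV12 minus shp53; over all genes it called 0.45% between the orders and moved the median of all genes there to 0.14. It turned the sign of 8 called differences, none called afterwards: Cebpa 0.89 and Cd36 1.20 and Mgll 0.034 (RASV12-first minus RASV12), Cebpa 0.20 (shp53-first minus RASV12), and between the orders Ebf2 0.16, Klf15 0.24, Mgll 0.70 and Prdm16 0.35. It also turned differences not called in either fit: Pparg 0.65 and Lpl 0.55 (RASV12-first minus RASV12), Cebpa 0.69 and Cd36 0.73 (between the orders) and Cd36 0.47 (shp53-first minus RASV12). Other settings turned only differences called in neither fit: Cebpa 0.086 between the orders with quantile normalization, Cebpb 0.14 in RASV12-first minus RASV12 with median centring, Cd36 0.020 in RASV12 minus shp53 with close arrays averaged, and without shp53 replicates 1 and 3 Cd36 0.98 in RASV12 minus shp53 and Lpl 1.74 in shp53-first minus shp53. Without the 4 arrays that stand apart these were Cebpb -0.11 (RASV12-first minus shp53), Cebpd -0.046 (shp53-first minus RASV12) and Plin2 0.14 (between the orders). Over the fits without 1 array, Cebpb ran from -0.036 to 0.46 and Cebpd from -0.027 to 0.35 in shp53-first minus RASV12, and Plin2 from -0.62 to 0.19 between the orders, each turned without shp53-first replicate 1; Fabp4 ran from -0.061 to 1.18 between the orders, turned without RASV12-first replicate 1. The causes were not tested. Without the 4 arrays that stand apart 9 members were tested and the counts were 6, 8, 6, 8 and 8 in RASV12-first minus shp53-first, RASV12-first minus RASV12, shp53-first minus RASV12, shp53-first minus shp53 and RASV12 minus shp53, while 46.4%, 65.3%, 56.9%, 67.8% and 58% of all genes were called. With close arrays averaged they were 1 between the orders, 0 in shp53-first minus RASV12, 1 in shp53-first minus shp53 and 0 in RASV12 minus shp53. Without shp53 replicates 1 and 3 a lone shp53 array was left, and no counts are given. Leaving out these 2 arrays and the fit of the 2 orders alone with the block were chosen after seeing the data. In shp53-first minus RASV12 quantile normalization and median centring each called 2, the filter on all 12 arrays 0 of 6 tested and the fit of the 2 groups alone 3; in shp53-first minus shp53 the last 2 settings called 3 of 6 and 2.

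Leaving out 1 array gave 2 to 4 between the orders (4 of 9 tested without shp53 replicate 2), 3 to 5 in RASV12-first minus RASV12 (5 without shp53-first replicate 1), 5 to 7 in RASV12-first minus shp53, 1 to 3 in shp53-first minus RASV12 (3 of 9 without shp53 replicate 2; 2 without shp53 replicate 3, shp53-first replicate 1 or RASV12-first replicate 1), 3 to 6 in shp53-first minus shp53 (3 without shp53 replicate 1 or 3) and 4 to 6 in RASV12 minus shp53. With the replicate number as a block, 2, 4, 6, 1, 5 and 4 were called in the 6 comparisons, Cebpd in RASV12 minus shp53 being lost, and 3 in the 2 orders alone, Lpl being gained. Of 2610 values under alternatives, 2331 kept direction and side of the threshold, 192 were no longer called, 62 became called and 25 turned sign. Signals near background, as for Cebpa and Cd36 in cells with both vectors, limit what fold can be given.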
